A study of Homo sapiens with 6 samples.

Results

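The inducible MAP kinase phosphatases are enzymes of the dual-specificity phosphatase (DUSP) family that switch MAP kinases off. The genes considered were DUSP1, DUSP2, DUSP4, DUSP5 and DUSP6, and their probes were all those whose single gene symbol in the platform annotation, updated through gene IDs, is one of these names. Of 14080 probes on the array, 5 met this rule. They report 4 of the 8987 genes that have a probe with 1 symbol, with 2 probes for DUSP1 and 1 each for DUSP4, DUSP5 and DUSP6. No probe carries the symbol DUSP2, so that gene is not analysed here. All 5 probes were measured on all 6 arrays. Counts of members below are counts of these 5 probes, so that DUSP1 is counted by both of its probes.

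MAP kinases relay signals from growth factors and stress to the nucleus, and they are active only while phosphorylated on a threonine and a tyrosine of the activation loop. A dual-specificity phosphatase removes both phosphates. The genes of these phosphatases are themselves induced by MAP kinase signalling, which makes them part of a negative feedback loop. DUSP1, DUSP2, DUSP4 and DUSP5 are nuclear proteins, whereas DUSP6 is cytoplasmic. DUSP5 and DUSP6 act on ERK, while DUSP1 and DUSP4 also act on JNK or p38. The mRNAs of DUSP1, DUSP5 and DUSP6 are known as short-lived transcripts of the early response to growth factors.

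RNA came from GM00156, a human cell line of the Coriell repository whose cell type the labels do not state. Cells were kept for 10 h with 100 µg/ml emetine, an alkaloid that stops ribosomes on the mRNA, or without it. Actinomycin D, which blocks RNA synthesis, was then given to both cultures at 5 µg/ml, and cells were collected after 0, 10 or 30 min, 1 h or 8 h. Each of these 5 harvests is 1 two-colour array of treated against untreated RNA, so that both sides carry actinomycin D. In the sixth array, called self-self, the 0 min RNA of treated cells was in both channels, and its description mentions no actinomycin D.

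There is 1 array per harvest and 1 cell line in the series, which limits the precision. Whether harvests came from 1 pair of cultures is not stated, and p-values measure only the spread between these arrays. Values are log2 ratios. The labels do not say which channel is the numerator, so only the side of 0, positive or negative, is reported, not which RNA was the more abundant. For the 0 min array the channel names (treated and untreated) and the description (treated against treated) conflict, so member means are also given without it. Between harvests Pearson's r across probes was 0.662 to 0.895, and between the self-self array and the harvests it was 0.178 to 0.327. The 1 h array had the lowest maximum of the 5 harvests, 2.99 against 5.94 to 7.14 on the others.

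Promoter sequence was at hand for 3 of the 5 genes in RefSeq (GRCh38.p14), and those of DUSP6, a gene with large ratios on these arrays, and DUSP1, a gene with small ones, are shown for comparison. The 250 bases before the annotated start lie at chr12:89352502-89352751 for DUSP6 and at chr5:172771196-172771445 for DUSP1, both on the minus strand. Capitals mark matches on either strand to the core of the cAMP response element (TGACG), the E-box (CACGTG), the TATA box (TATAAA) and the CCAAT box (CCAAT).
DUSP6: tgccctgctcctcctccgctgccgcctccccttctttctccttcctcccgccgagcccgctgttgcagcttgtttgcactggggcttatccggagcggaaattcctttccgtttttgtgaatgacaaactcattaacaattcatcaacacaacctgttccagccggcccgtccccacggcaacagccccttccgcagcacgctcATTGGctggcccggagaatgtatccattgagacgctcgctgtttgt
DUSP1: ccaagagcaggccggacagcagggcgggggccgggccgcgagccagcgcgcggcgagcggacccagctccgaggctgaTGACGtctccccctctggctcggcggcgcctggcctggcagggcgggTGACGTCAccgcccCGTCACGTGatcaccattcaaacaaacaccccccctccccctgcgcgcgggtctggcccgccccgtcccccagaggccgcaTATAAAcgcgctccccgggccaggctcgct

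The DUSP1 stretch held 4 matches to TGACG, beginning 172, 125, 122 and 111 bases before the start. The matches at 125 and 122 overlap and form the full palindromic element TGACGTCA, which 1.65% of 35116 promoters of this length hold, against 21.2% for the core. It also held an E-box 108 bases before the start, overlapping the last core match, and a TATA box 30 bases before it, found in 6.34% and 10.7% of promoters. DUSP6 had none of these letters and a CCAAT box 46 bases before its start, a motif in 32.0% of promoters. The GC box (GGGCGG) and the ETS core (CCGGAA) were searched too but are not marked in capitals. DUSP1 held 4 GC boxes and DUSP6 held 0, for a motif in 42.6% of promoters. The ETS core, in 14.5% of promoters, was found in neither. The GC content was 74.4% for DUSP1 and 57.2% for DUSP6, with a median of 58.0% over all promoters. These matches describe the sequence and are not shown to be binding sites.

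DUSP6 and DUSP5 had large positive log ratios at every harvest, while the probes of DUSP1 and DUSP4 stayed small. For DUSP6, the cytoplasmic ERK phosphatase, the log2 ratios of the harvests, from 0 min through 10 min, 30 min and 1 h to 8 h, were 1.16, 1.88, 2.70, 1.58 and 2.34, against -0.01 on the self-self array. As linear ratios these are 2.23, 3.69, 6.51, 2.99 and 5.07. All 5 harvests thus lay above the self-self value, with 30 min highest and 0 min lowest. Its mean over the harvests was 1.93 (SE 0.19, 5 arrays, limma adjusted p = 0.000499).

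DUSP5, the nuclear ERK phosphatase, had values of 1.21, 1.77, 2.50, 0.87 and 2.67 over the same harvests and -0.01 on the self-self array. In linear terms the ratio ran from 1.83 at 1 h to 6.34 at 8 h. Here too every harvest lay above the self-self value, with 1 h lowest. The mean was 1.80 (SE 0.23, 5 arrays, limma adjusted p = 0.000616). DUSP6 and DUSP5 stood at the 97.7 and 97.3 percentiles of the means of all 13151 probes fitted.

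DUSP1, a nuclear phosphatase that acts on JNK and p38 as well as ERK, gave lower values, and its 2 probes differed in course. Probe 11663 was at 0.40, 0.42, 0.60, 0.47 and 0.82 at the 5 harvests in order of time, and at 0.08 on the self-self array. Probe 9312 was at 0.43, 0.58, 0.13, 0.07 and 0.16, and at 0.04 on the self-self array. The probes were alike at 0 min and parted from 30 min on, where 11663 was the higher of the pair. The difference, 11663 minus 9312, was -0.03, -0.16, 0.47, 0.40 and 0.65, with a mean of 0.27 ± 0.35 (SD, 5 arrays). It did not pass an exact two-sided sign-flip permutation test (p = 0.25), a test that can reach no p below 0.0625 with 5 arrays and that was added after the values were seen.

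Probe 11663 passed with a mean of 0.54 (SE 0.11, 5 arrays, limma adjusted p = 0.00359), and probe 9312, at 0.27 (SE 0.12), did not (limma adjusted p = 0.0766). Averaged over its probes, DUSP1 was at 0.41 (SE 0.11, limma adjusted p = 0.0112 among genes). The annotation gives both probes the same transcript accession, so it does not tell which part of the mRNA each reports.

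DUSP4, another nuclear phosphatase of ERK and JNK, was at -0.04, 0.31, 0.52, 0.51 and 0.13 in order of time, and at -0.03 on the self-self array. Its 0 min value was thus the same as its self-self value to within 0.01, and its 30 min and 1 h values were the highest. The mean of 0.29 (SE 0.13, 5 arrays) did not pass (limma adjusted p = 0.0875). Without the 0 min array it was 0.37 and passed (limma adjusted p = 0.0420). This was the only 1 of the 5 fits with a harvest left out in which DUSP4 passed. DUSP4 was at the 61.0 percentile of all probe means, and the DUSP1 probes 9312 and 11663 at 60.1 and 77.5.

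**Figure D1:**
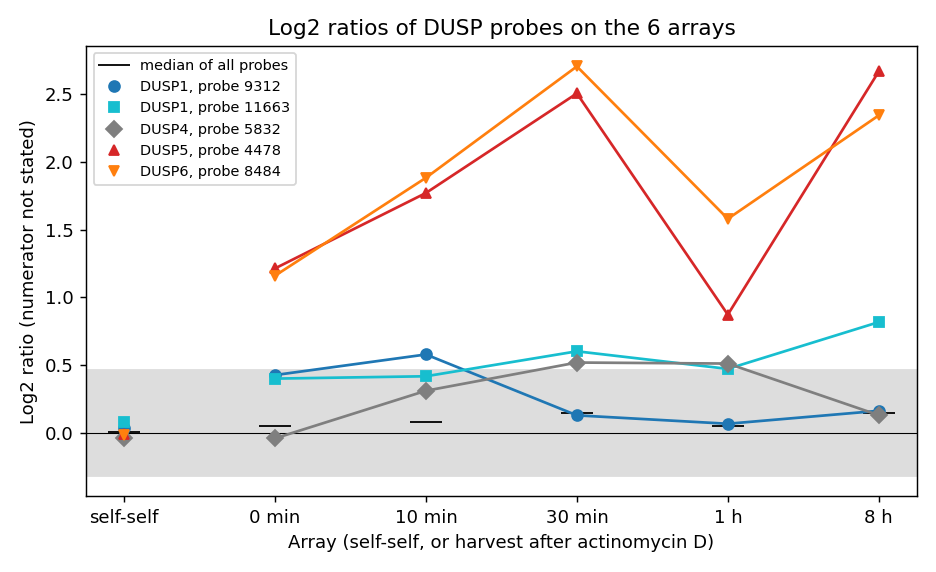
Log2 ratio of each DUSP probe (y axis) on the self-self array and the 5 harvests (x axis), 1 array each. The grey band is the central 99% of the self-self array, from -0.32 to 0.47, and the black dashes are the medians of all probes. DUSP5 and DUSP6 lie above the band at every harvest, from 0.87 to 2.70, while DUSP1 and DUSP4 lie in it or up to 0.82.

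In all, 3 of the 5 member probes passed the threshold for the mean on the positive side and none on the negative side. Over all 13151 probes, 35.0% were called positive and 26.3% negative, so a positive call by itself is common on these arrays. The median of all probe means was 0.12, and with each array centred on its median the 5 members remained positive, from 0.18 for DUSP1 probe 9312 to 1.84 for DUSP6. Leaving out each harvest in turn, DUSP6, DUSP5 and DUSP1 probe 11663 passed in all 5 fits. DUSP4 passed in 1 of them and DUSP1 probe 9312 in none. Without the doubtful 0 min array the means were 2.13 for DUSP6, 1.95 for DUSP5, 0.58 and 0.24 for DUSP1 probes 11663 and 9312, and 0.37 for DUSP4. With the self-self array in the fit as the level to compare with, DUSP6 was at 1.95 and DUSP5 at 1.81, with SEs of 0.48 and 0.57. None of the 5 members passed there (limma adjusted p = 0.167 for DUSP6 and 0.173 for DUSP5), and over all 13091 probes of that fit 0 were called positive and 2 negative.

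To see which single values exceeded the noise of labelling and hybridisation, each was set against the central 99% of the self-self array, with no test. At 0 min 2 members lay above that range, DUSP5 and DUSP6, against 18.6% of 13091 probes. At 10 min DUSP1 probe 9312 was added, for 3 of 5 against 33.2% of probes. Its partner 11663 and DUSP4 came above the range at 30 min, where 9312 had dropped back into it, for 4 of 5 against 33.3%. The same 4 were above it at 1 h, against 19.2% of probes, although 11663 and DUSP4 exceeded the upper limit of 0.47 by under 0.05. At 8 h 3 members were above it, DUSP5, DUSP6 and DUSP1 probe 11663, against 33.5% of probes. No member lay below the range at any harvest, where 20.8%, 34.1%, 29.9%, 26.4% and 29.8% of probes lay in order of time.

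Because the arrays differ in spread, with robust SDs from 0.44 at 0 min to 0.91 at 10 min, the members were also ranked among the probes of each array. DUSP5 lay at the 95.5, 95.9, 98.3, 94.4 and 97.1 percentiles of the 5 harvests in order of time. DUSP6 lay at 95.2, 96.3, 98.6, 99.7 and 96.0. Both therefore kept within the top 6% of probes on every harvest, and the largest rank of DUSP6 fell on the array where its log ratio was second lowest. On the self-self array they were at 45.3 and 44.3, below the middle.

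DUSP1 probe 11663 ranked between the 64.7 and 80.9 percentiles of the harvests, but it was already at 73.1 on the self-self array. Probe 9312 was at 79.8 and 71.8 at 0 and 10 min and between 48.9 and 50.9 afterwards, in the middle of the array. DUSP4 climbed from 41.6 at 0 min to 83.0 at 1 h and stood at 49.2 at 8 h. That 83.0 was the highest rank of DUSP1 or DUSP4 on any array.

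**Figure D2:**
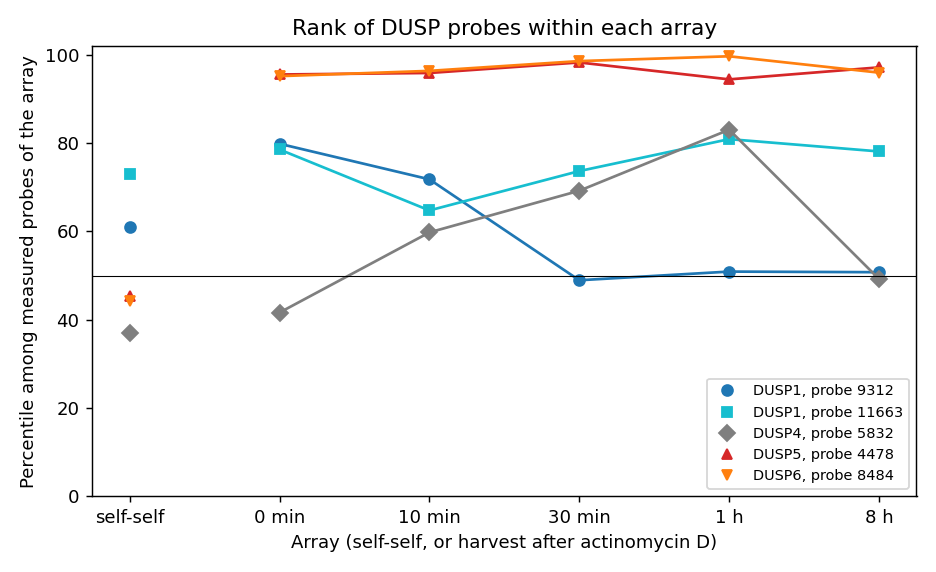
Percentile of each DUSP probe among the measured probes of its array (y axis) on the 6 arrays (x axis), with a line at 50. DUSP5 and DUSP6 lie between 94.4 and 99.7 on the harvests and near 45 on the self-self array, and the DUSP1 and DUSP4 probes lie between 41.6 and 83.0 on the harvests.

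The slope over log time asked whether the ratios moved after RNA synthesis was blocked. None of the 5 members passed with limma, adjusted or not, and neither did any other probe after adjustment (0.0% of 13151, with 1870 at an unadjusted p under 0.05). The slopes per unit of log2(1 + min / 10) were 0.20 (SE 0.12) for DUSP5, 0.15 (SE 0.10) for DUSP6, 0.07 (SE 0.06) for DUSP1 probe 11663, 0.01 (SE 0.07) for DUSP4 and -0.06 (SE 0.06) for DUSP1 probe 9312. The adjusted p was 0.565 for DUSP5 and 0.594 for DUSP6. Without the 8 h array the slope of DUSP5 was -0.001, and without the 0 min array that of DUSP6 was 0.05. With the arrays scaled to equal spread the slopes were 0.05 for DUSP5 and 0.04 for DUSP6.

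Single steps between arrays, which have no replicate, show where the courses bent. From 0 to 30 min DUSP6 gained 1.54 and DUSP5 gained 1.29, when the median probe gained 0.05 and 90% of probes lay between -0.80 and 0.85. These gains are at the 99.5 and 98.9 percentiles of all probes, but the 30 min array also had the wider spread, with a robust SD of 0.78 against 0.44 at 0 min. As distance from the array median in robust SDs, DUSP6 went from 2.51 to 3.26 and DUSP5 from 2.64 to 3.01. DUSP4 gained 0.56 over the same step, at the 86.7 percentile, while DUSP1 probe 9312 lost ground with -0.30. From 0 min to 8 h the differences were 1.45 for DUSP5 and 1.18 for DUSP6, at the 95.1 and 92.3 percentiles. The 8 h array was wider too, with a robust SD of 0.87. In robust SDs from the array median DUSP6 was at 2.53 and DUSP5 at 2.90 at 8 h, against 2.51 and 2.64 at 0 min. At 10 min DUSP6 was at 1.97 and DUSP5 at 1.84, and at 1 h DUSP6 was at 2.90 and DUSP5 at 1.56.

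At 1 h both ERK phosphatases were lower than at 30 min, by a difference of -1.63 for DUSP5 and -1.12 for DUSP6, and the following step to 8 h was 1.79 and 0.76. Large ratios were in general lower on the 1 h array: the 95 percentile of all probes was 0.92 there, against 1.62 at 30 min and 2.11 at 8 h. Of 328 probes whose mean of 30 min and 8 h lay between 2 and 3, as for DUSP5 and DUSP6, the median at 1 h was 1.04 and 90% lay between 0.56 and 1.49. Because high values at 30 min and 8 h picked these probes, a lower 1 h median is partly fixed by that choice. DUSP5, at 0.87, was above 26.0% of the others and so inside that range. DUSP6, at 1.58, was above 97.6% of them. Without the 1 h array the mean of DUSP5 was 2.04 and that of DUSP6 2.02.

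**Figure D3:**
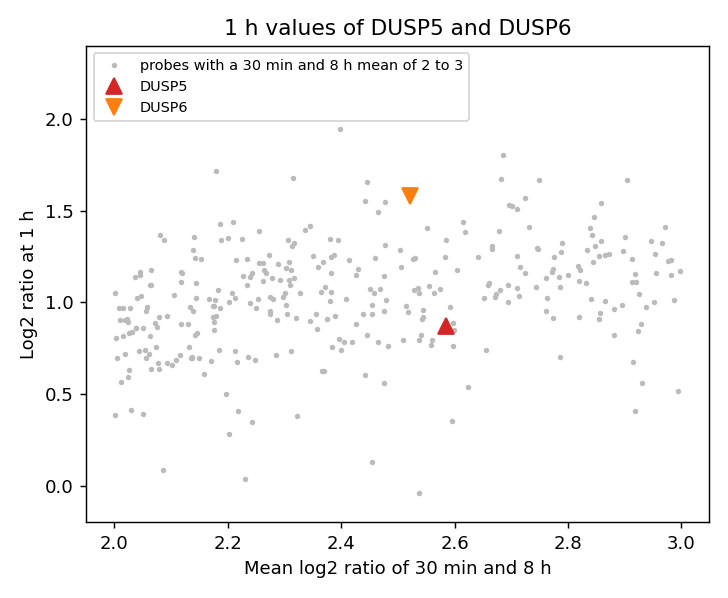
Log2 ratio at 1 h (y axis) against the mean of 30 min and 8 h (x axis) for the 328 probes whose mean lies between 2 and 3. DUSP5 (triangle, 0.87 at 1 h) sits among the other probes and DUSP6 (inverted triangle, 1.58) near their upper edge.

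In order of the mean the genes ran DUSP6, DUSP5, DUSP1 and DUSP4, and each was compared with the next within arrays by the exact two-sided sign-flip permutation test, adjusted over 3 pairs. The same values set the pairs and the positive sign of each mean difference, so the test is no independent support for the order. DUSP6 minus DUSP5 was -0.05, 0.11, 0.20, 0.71 and -0.32 in order of time, a mean of 0.13 ± 0.38 (SD, 5 arrays), smaller than its spread (exact p = 0.625, adjusted p = 0.625). Its sign rests on the 1 h array, without which the mean was -0.02; without the 0 min array it was 0.17, and without the 8 h array 0.24. DUSP5 minus DUSP1 was positive on 5 of 5 arrays, from 0.60 at 1 h to 2.17 at 8 h. Its mean of 1.40 ± 0.73 (SD) was larger than its spread, with the smallest p that 5 arrays can give (exact p = 0.0625, adjusted p = 0.188). DUSP1 minus DUSP4 had a mean of 0.12 ± 0.31 (SD, 5 arrays), again within the spread (exact p = 0.438, adjusted p = 0.625). The test thus resolved the order of none of the 3 pairs, and with 5 arrays it could not reach 0.05 for any. Only DUSP5 minus DUSP1 had the same sign on every array.

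The genes with the most similar courses were found by the Euclidean distance of log2 ratios over the 5 harvests among 8748 genes. Nearest to DUSP5 was SRC, a tyrosine kinase that signals upstream of Ras, at a distance of 0.23, with values of 1.31, 1.77, 2.42, 1.01 and 2.54. AFTPH, FNIP2, ITPKC and ZBTB1 came next at 0.56 to 0.60. Nearest to DUSP6 was TRAF6, a ubiquitin ligase of Toll-like and interleukin-1 receptor signalling, at 0.38, with values of 1.14, 1.77, 2.81, 1.24 and 2.25. The kinase DYRK1A was at 0.45, and AIM2, RXYLT1 and SMAD7, an inhibitor of TGF-beta signalling, were at 0.60 to 0.67. DUSP5 and DUSP6 were 0.81 apart, with 15 genes nearer to DUSP6 than DUSP5 was and 43 genes nearer to DUSP5 than DUSP6 was.

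DUSP1 lay closest to IFT81, HIC2, CPA4, CALB1 and OXR1 at distances of 0.11 to 0.17, and DUSP4 to PVT1, SNAP25, PEX6, ABI3 and OR7E2P at 0.13 to 0.19. Small distances are easier to reach for small ratios, so distances are not comparable between these genes and DUSP5 or DUSP6. Between DUSP1 and DUSP4 the distance was 0.67, and 1567 genes were nearer to DUSP1.

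The wider pathway is given by gene lists ordered by role, with probes averaged, and read against all 8748 genes, of which 37.0% passed as positive, 25.3% passed as negative, and the median was 0.14. Other dual-specificity phosphatases had 7 of 14 measured genes positive and 0 negative, with a median of 0.34. CDC14A, which acts on substrates of cyclin-dependent kinases, was at 2.75 (SE 0.29, limma adjusted p = 0.000462). DUSP14, a small phosphatase without the kinase-docking domain, was at 1.72 (SE 0.19) and reached 3.40 at 8 h. DUSP3, of the same small type, was at 1.14 (SE 0.14). Of the larger MAP kinase phosphatases DUSP10, a JNK and p38 phosphatase, was positive at 0.64 (SE 0.13), while DUSP8, DUSP9 and DUSP16 did not pass, with means of 0.07, -8.1e-05 and -0.01.

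Growth factor receptors and adaptors upstream of ERK lay on both sides, 7 positive and 5 negative of 19, with a median of 0.07 that turned to -0.03 with arrays centred and was 0.0004 without the 10 min array and 0.17 without the 30 min or the 8 h array. IRS1, the insulin receptor substrate, was at 1.45 (SE 0.15), the PDGF receptor chain PDGFRB at -0.99 (SE 0.16) and EGFR at 0.83 (SE 0.14). Ras, Raf, MEK and ERK genes were 6 positive and 4 negative of 15, with a median of 0.04, or -0.06 centred; it was 0.02 without the 0 min array, 0.07 without the 30 min, 0.16 without the 1 h and 0.12 without the 8 h array. The 3 farthest from 0 were LAMTOR3, a scaffold for MEK and ERK, at 1.65 (SE 0.15), PEBP1, an inhibitor of Raf, at -1.09 (SE 0.17) and MAP2K1, which encodes MEK1, at -0.72 (SE 0.13). MAPK3, which encodes ERK1, a substrate of DUSP5 and DUSP6, was at -0.55 (SE 0.12); it was picked after its value was seen.

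The JNK and p38 cascade had 9 positive and 7 negative of 21 genes, with a median of -0.18. With arrays centred 9 were positive and 10 negative, and the median was -0.28. Without the 10 min array 4 were negative, and without the 1 h array the median was 0.44. Its largest were GADD45B, an activator of the kinase MAP3K4, at 4.29 (SE 0.62), MAP2K3, which activates p38, at 2.25 (SE 0.27), and the kinase MAP3K8 at -1.46 (SE 0.16). Kinases that MAP kinases activate were 3 positive and 1 negative of 10, with a median of 0.19. Without the 30 min array 1 was positive, without the 0 min array 2 were negative, and the median was 0.11 without the 10 min and 0.04 without the 8 h array. MKNK1, which phosphorylates the cap-binding protein eIF4E, was at 1.03 (SE 0.14), RPS6KA2 at -0.71 (SE 0.12) and MAPKAPK5 at 0.43 (SE 0.11).

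The list of other feedback inhibitors of ERK signalling had 6 of 11 genes positive and 0 negative. Its median of 0.66 was the highest of the 8 lists, which were chosen with earlier results known. Without the 1 h array it was 0.55, against 0.54 for the transcription factors that MAP kinases phosphorylate. With all 5 harvests, the median was the value of RGS2, at 0.66. SPRED2, which did not pass, was at 0.21, so the median depends closely on which genes were listed. The role of each listed gene as an inhibitor was not tested. SPRY2, which restrains growth factor signalling to Ras, was at 1.62, 2.23, 1.84, 0.94 and 4.53 in order of time, a mean of 2.23 (SE 0.31, limma adjusted p = 0.000800). IER3, an early response gene that acts in ERK signalling, was at 2.10 (SE 0.34) and PHLDA1 at 1.96 (SE 0.26). SPRY1 and SPRED2, relatives of SPRY2, did not pass, at 0.13 and 0.21. This list thus also held members with large and with small ratios.

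Transcription factors that MAP kinases phosphorylate were 8 positive and 1 negative of 14, with a median of 0.48. ETS1 was at 2.25 (SE 0.22), ETS2 at 2.05 (SE 0.26) and ATF2 at 0.83 (SE 0.16). The negative member was ETV5 at -0.35, which lost its call without the 10 min, 30 min or 1 h array. Proteins that bind AU-rich mRNA or take part in mRNA decay had 5 positive and 1 negative of 17, with a median of 0.16. Of these, ZFP36L1 and ZFP36, which direct AU-rich mRNAs to decay, were at 1.16 (SE 0.18) and 0.72 (SE 0.15), and the RNA-binding protein PUM2 was at 1.00 (SE 0.14).

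**Figure D4:**
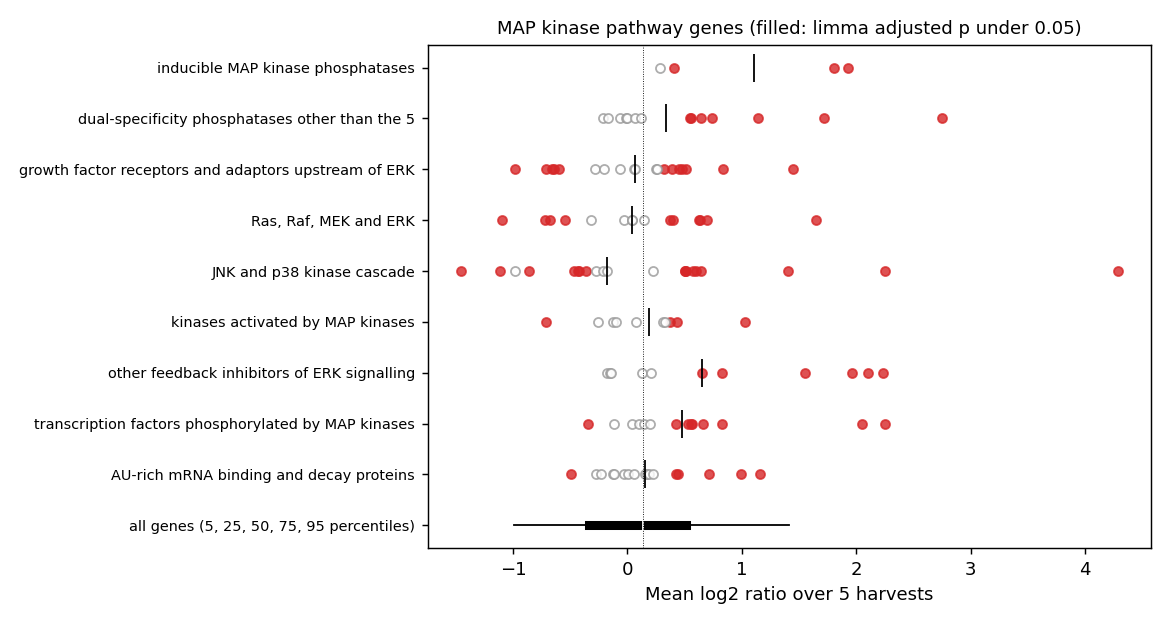
Mean log2 ratio over the 5 harvests (x axis) of the measured genes of the inducible phosphatases and 8 lists (rows), probes averaged; filled points passed a limma adjusted p of 0.05, bars mark list medians, and the bottom row gives percentiles of all genes. DUSP5 at 1.80 and DUSP6 at 1.93 lie beyond the 95 percentile of all genes, 1.41, and DUSP1 at 0.41 and DUSP4 at 0.29 lie inside the 25 to 75 percentile range.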

How the data were processed

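The series holds 6 two-colour arrays of 14080 probes, with 4 µg of mRNA per channel. Per the labels, the authors labelled treated RNA with Cy3 and untreated RNA with Cy5, divided background-subtracted intensities, normalised within slides on housekeeping genes and discarded ratios of quality below 0.5. The deposited values are log2 ratios: raised to base 2, between 99.5% and 100.0% of them gave ratios with 4 decimals (tolerance 0.05 of 1 part in 10000). Scanner software was not given in the sources used here.

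On each array 333 to 534 probes share 1 value; these were set to not measured, which affected no member. For 13151 probes, or 8748 genes, the mean over the 5 harvests and the slope against log2(1 + min / 10), centred, were estimated with limma (version 3.58.1, R 4.3.3), with Benjamini-Hochberg adjustment at 0.05, two-sided. Of 14080 probes, 11304 have 1 symbol, 446 several and 2330 none, and 11282 matched by gene ID. Members and lists were chosen with earlier results of these data known. From each list the 3 genes farthest from 0, and for each member the 5 nearest genes, were named. DUSP8, DUSP9, DUSP10, DUSP16, MAPK3, RGS2, SPRY1, SPRED2 and ETV5 were added after their values were seen. No cell type was checked, since ratios give no level.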

Additional observations from a re-analysis of the deposited data

Results flagged for a closer look

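DUSP4 was at -0.0395 at 0 min and positive at the other 4 harvests, so that 1 harvest lay on the opposite side of 0 from the rest. The difference was not tested, since each harvest has 1 array, and the 0 min value lies well inside the self-self range.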

How the results depend on the processing

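Every member mean kept its positive sign under all 12 alternatives. The means ranged from 1.74 to 2.13 for DUSP6, 1.59 to 2.04 for DUSP5, 0.44 to 0.58 for DUSP1 probe 11663, 0.18 to 0.33 for DUSP1 probe 9312 and 0.19 to 0.37 for DUSP4. Of the 5 member probes 5 passed with robust moderation and a trend, where limma called 41.5% of all probes positive and 30.5% negative. With the self-self array in the fit 0 members passed, with 0 of all probes positive and 2 negative, in a fit where the lone self-self array takes its spread from the harvests. No member passed for the slope under any alternative, although limma called 747 positive and 231 negative slopes over all probes with robust moderation, and 512 and 62 without the 1 h array. The slope of DUSP4 was -0.000344 with arrays centred and ranged from -0.058 to 0.20 with 1 harvest left out, that of DUSP5 from -0.0013 to 0.23 and that of DUSP6 from 0.05 to 0.24. At equal spread the slopes were 0.05 for DUSP5 and 0.04 for DUSP6. DUSP6 minus DUSP5 ranged from -0.0165 to 0.24 in the same way.

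Counts of members outside the self-self range moved with the limit. With the central 95% they were 4 at 0 min and 5 at 10 min, against 27.9% and 40.9% of all probes above it. A limit of 1 log2 unit left 2 at 30 min and 1 at 1 h (12.5% and 3.68% of probes), and centring left 2 at 30 min and 2 at 1 h (25.9% and 16.4%). At equal spread, which widens the self-self array to the harvests, 0 lay outside at 0, 10 and 30 min, 1 h and 8 h, where 2.25%, 0.504%, 1.04%, 0.00764% and 1.39% of probes lay above. With 1 harvest left out, list counts ranged from 0 to 1 negative for other dual-specificity phosphatases, 4 to 6 negative for JNK and p38 (whose median was 0.44 without the 1 h array and 0.02 with the most frequent value kept), 1 to 3 positive and 1 to 2 negative for kinases activated by MAP kinases, and 0 to 1 negative for transcription factors. Centring gave 10 negative JNK and p38 genes, 2 negative kinases activated by MAP kinases and 3 negative AU-rich binding and decay genes. The cause of these moves was not tested. Ratios carry no signal over background, so dim probes cannot be told from bright ones.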
